A study of Rattus norvegicus with 12 samples.

Results

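The first time point of a forskolin time course was examined in F11 cells, a hybrid of mouse neuroblastoma and sensory neurons from rat dorsal root ganglia. The 3 arrays labelled with a 2 h time point were taken out of 12, and all genes measured on them were described. The cells had been kept for 3 h in medium with 0.5% fetal calf serum before 10 µM forskolin was added for 2 h. The other 9 arrays hold cells given the same forskolin for 4, 24 or 48 h, 3 per time. On each array the Cy3 (green) channel held RNA of forskolin-treated cells, and the Cy5 (red) channel held RNA of the common reference, F11 cells after 3 h of the low-serum medium with no forskolin. The reference therefore serves as 1 control sample, whose own spread does not enter the tests. It was taken before the 2 h of further low-serum culture, so forskolin and the longer time in that medium cannot be told apart. No array had the dyes exchanged, so a gene-specific dye effect cannot be told apart from a change against the reference, whereas it cancels between time points. No label says whether the 3 replicates came from separate cultures, so p-values reflect only the variation between these samples, which may be technical.

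Forskolin activates adenylyl cyclase directly and raises cyclic AMP without a receptor. Cyclic AMP frees the catalytic subunits of protein kinase A, which phosphorylate CREB, a transcription factor bound to the cyclic AMP response element (CRE) in promoters. Genes that respond first need no new protein and many encode transcription factors, inhibitors of the signal itself or unstable regulators. In sensory neurons cyclic AMP is known for sensitising the cell to painful stimuli and for raising the capacity of the axon to regrow.

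Each array held 43379 non-control spots for 41012 probes of the rat transcriptome. At 2 h, the forskolin signal was well above background on 20036 to 20628 of these spots and the reference signal on 21387 to 22308. The number of arrays limits the precision. Over the 17802 genes tested, the log2 ratios of replicates 2 and 3 correlated at 0.79 across genes, and replicate 1 correlated with them at 0.61 and 0.64; genes are not independent replicates. All 3 slides carried the 2 h sample at the first array position, so position and time cannot be told apart. Of 34 markers of sensory neurons and F11 cells, 30 were bright enough to test, whereas the sensory channel genes Scn11a and Trpv1 were not. Of the 30, 28 were well above background in forskolin-treated cells on all 3 arrays, as were 15130 of the 17802 genes tested. The brightness filter itself favours this. Of markers of other cells, 5 of 15 glial, 10 of 15 fibroblast and 7 of 17 leukocyte and endothelial genes were bright enough to test. Without the filter 35525 genes could be tested, against 17802 with it. The arrays are designed for rat, and how far mouse transcripts of the hybrid bind the probes was not tested.

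After 2 h and with the main processing, a small group of genes had risen strongly, few had fallen strongly, and a large number had moved slightly. Every change below is the log2 ratio of forskolin over reference, and a gene is called at a Benjamini-Hochberg adjusted p under 0.05 in limma. Of the 17802 genes, 5042 (28.3%) were called, 1779 (9.99%) higher and 3263 (18.3%) lower. The changes were mostly small, and 4853 of the calls (96.3%) were under 0.5. At 2-fold or more, 49 genes (0.275%) were higher and 2 (0.0112%) were lower. Between 0.5 and 1 there were 93 higher and 45 lower genes, whereas 595 were higher and 940 lower between 0.25 and 0.5, and 1042 were higher and 2276 lower by under 0.25. Lower calls outnumbered higher ones only below 0.5. With 1 array at 2 h left out, calls of any size numbered 4172 without replicate 1, 3172 without replicate 2 and 2803 without replicate 3. A test on fewer arrays finds fewer genes, so this drop does not trace calls to single arrays. The calls also depend on the intensity-dependent (loess) dye correction. With median centring of the arrays and no loess, 1.64% of the calls were higher in place of 35.3%. The median of all genes was then -0.57 in place of -0.02. The balance of 2-fold changes turned as well. With median centring 13 genes were higher and 4552 lower by 2-fold, and with the scanner software's processed signals 142 and 172. The 20 largest rises and 12 largest falls among genes with a symbol kept their direction and call in each of the 13 alternative settings in which they were measured. Their sizes and order did not hold in every setting, because an offset of 50 in the background correction draws the ratios of dim probes towards 0. For most named genes whose value moved by over 1.5 times, it is given below with an offset of 0, with the scanner software's processed signals or with both. A gene given without such values was not thereby shown to be stable.

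The largest rise was that of Bhlhe41, which encodes a basic helix-loop-helix repressor of the circadian clock. Its normalized intensity was 4003, 3824 and 3673 in forskolin-treated cells on replicates 1, 2 and 3, and 424.3, 405.5 and 417.8 in the reference. The lowest treated value lay far above the highest reference value. This was a 9.21-fold rise (3.20 ± 0.06, SD, n = 3, adjusted p = 1.95e-14). These intensities include the offset of 50. The forskolin and reference intensities did not overlap for any of the 20 largest rises or the 12 largest falls. That was largely set by the choice of these genes, which were called, moved one way on every array and changed most. Of all 110 genes that were named and called, many with small changes, 99 had no overlap. The trait is therefore not particular to the largest changes. The share over all genes was not counted.

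**Figure D1:**
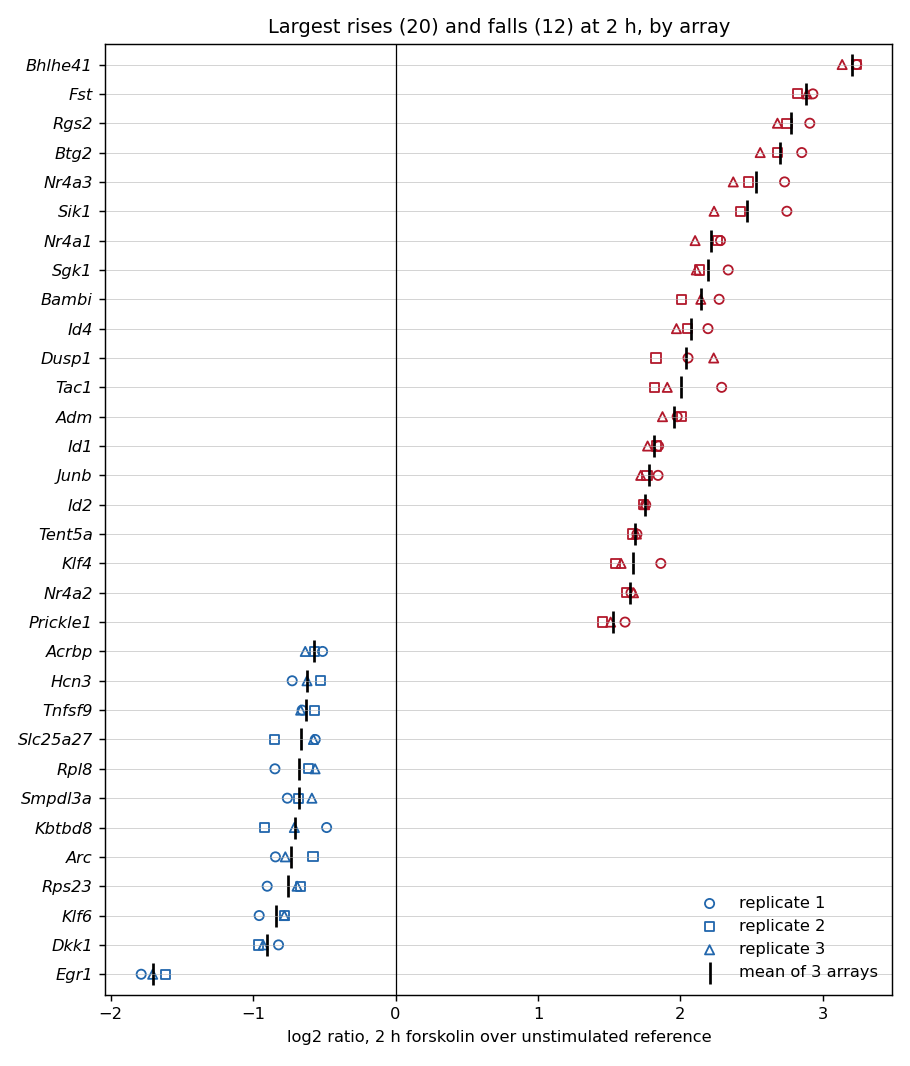
Log2 ratio of 2 h forskolin over reference (x axis) for the 20 largest rises (red) and 12 largest falls (blue) among genes with a symbol, with 1 symbol per replicate array and a bar at the mean of 3 arrays. The rises run from 1.52 (Prickle1) to 3.20 (Bhlhe41), whereas all falls but that of Egr1 (-1.70) are smaller than 1.

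The orphan nuclear receptors of the Nr4a family, transcription factors whose activity is set mainly by their abundance, all rose. Nr4a1 had forskolin intensities of 5813, 5443 and 4450 against 1195, 1134 and 1035 in the reference, a change of 2.22 ± 0.10. Nr4a3 rose by 2.53 ± 0.18, with 1883, 1674 and 1518 against 283.4, 299.9 and 293.4. Nr4a2 rose by 1.65 ± 0.02. In each of the 3 genes the treated channel was higher on every array. For Nr4a3 other probes read 2.24 and 0.87, all called.

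Among AP-1, ATF and MAF factors, which bind DNA as pairs through leucine zippers, 7 of 13 tested genes rose, none fell and 6 were not called (median 0.32, against -0.02 over all genes). For this and each later list, the shares over all genes were 9.99% higher, 18.3% lower and 28.3% called. Junb had forskolin intensities of 2015, 2038 and 1994 against 561.5, 599.4 and 604.5, a change of 1.78 ± 0.06. Fos, the classical immediate-early gene, changed by 1.16, 1.33 and 1.17 on the 3 arrays, from reference intensities of only 69.8 to 82.1. With an offset of 0 Fos rose by 2.27, above Junb at 1.89, and with the processed signals by 2.96, above Junb at 1.93, so the order of the family depends on the background correction. Jun rose by 1.07 ± 0.12. Fosl2 rose by 0.65 ± 0.05 (1.16 and 1.44 in those settings). Fosb, another early gene of the family, was not called (-0.09 ± 0.04, adjusted p = 0.119).

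In the CREB family 2 of 10 genes rose and 1 fell, so that 30.0% were called, near the 28.3% of all genes. Crem, which yields both activators and the early repressor ICER from an internal promoter, changed by 1.62, 1.27 and 1.29 on the 3 arrays (1.39 ± 0.20, adjusted p = 5.58e-09). A second Crem probe read 0.51, also called. Creb1 rose by 0.30 ± 0.06 (0.47 with the processed signals) and Creb3l1, a factor of the endoplasmic reticulum membrane, fell by 0.33. Both coactivator genes of the acetyltransferase kind, Crebbp and Ep300, were tested and not called.

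In the list of C/EBP factors, PAR bZIP factors and clock genes, 8 of 18 rose and 1 fell (median 0.10). Besides Bhlhe41, the rises were led by Cebpb, a C/EBP activator (1.07 ± 0.16), and by Nfil3 (0.66), a repressor that was between 0.6592 and 0.6603 on all 3 arrays. Bhlhe40, the close relative of Bhlhe41, rose by 0.51 ± 0.13. Per1, a clock gene with a known response to cyclic AMP, rose by 0.19 ± 0.05 (adjusted p = 0.0189), at 0.36 with an offset of 0 and 0.46 with the processed signals, and this call was lost without replicate 2 (adjusted p = 0.092) or replicate 3 (0.11).

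Among Kruppel-like factors 3 of 9 rose and 2 fell. Klf4, with forskolin intensities of 1269, 1019 and 1059 against 349.0, 348.9 and 353.3, rose by 1.66 ± 0.17. Klf13 (0.41 ± 0.26) also rose, whereas Klf6 (-0.84 ± 0.10) and Klf5 (-0.40 ± 0.05) fell. Calls thus went both ways with the main processing, and the share lower, 22.2%, was near the 18.3% of all genes. With median centring in place of loess, 1 was higher and 8 were lower, where the median of all genes was -0.57. A second, dim probe of Klf6 read 0.01, so its fall rests on 1 probe, and a second Klf5 probe read -0.12 and was not called. Klf10, an early gene of TGF-beta signalling, was not called (-0.05 ± 0.05, adjusted p = 0.471).

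Genes that act back on the cyclic AMP signal were next. Rgs2, which shortens the signal of G proteins, had forskolin intensities of 8468, 7678 and 7420 against 1128, 1142 and 1157, a rise of 2.78 ± 0.12. Sik1, a kinase that holds the CREB coactivators outside the nucleus, changed by 2.75, 2.42 and 2.24 (2.47 ± 0.26). Both were higher on every array. Gem, a small GTPase that restrains calcium channels, rose by 1.08 ± 0.09, and Pde4d, a cyclic AMP phosphodiesterase, by 0.95 ± 0.13. With an offset of 0 they rose by 1.94 and 1.57, and with the processed signals by 2.42 and 2.00. The Pde4d probes read 0.95, 0.42 and 0.22, so the size of its rise also differs with the probe. In this list of phosphodiesterases, RGS proteins and SIK kinases, 4 of 19 tested genes rose, 4 fell and 11 were not called, so that its median was 0.01 in spite of these members. Pde4b was not bright enough to test. Among the genes that produce the signal, the cyclases, protein kinase A subunits, EPAC proteins and anchors, 2 of 19 rose, 3 fell and 14 were not called (median 0.07). Their share called, 26.3%, was near that of all genes (28.3%). The falls were in Prkacb, a catalytic subunit of protein kinase A (-0.47 ± 0.07), the anchor Akap5 (-0.35 ± 0.03) and the cyclase Adcy9 (-0.31 ± 0.08). With an offset of 0 Akap5 stood at -0.54 and Adcy9 at -0.47, and with the processed signals at -0.63 and -0.55. A second, dim Prkacb probe read 0.05 and was not called. The anchor Akap9 was called at 0.24 ± 0.20, but not without replicate 1 (0.18, adjusted p = 0.18) or replicate 3 (0.18, adjusted p = 0.22).

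Genes of feedback on MAP kinases were called in both directions with the main processing. Dusp1, a nuclear phosphatase of MAP kinases, had forskolin intensities of 388.9, 376.3 and 453.1 against 93.7, 106.0 and 96.3, a rise of 2.04 ± 0.20. With the processed signals its rise was 3.17. Dusp2 (0.69 ± 0.12, 1.15 with the processed signals) and the EGF receptor inhibitor gene Errfi1 (0.43 ± 0.04) rose as well. Dusp6, which acts on ERK in the cytoplasm, fell by 0.39. Over the list of these phosphatases and Sprouty genes, 5 of 14 rose, 4 fell and 5 were not called. The share lower was 28.6%, against 18.3% of all genes. With median centring in place of loess, 1 was higher and 8 were lower, where the median of all genes was -0.57. Errfi1 then stood at -0.18 relative to that median.

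Of 27 tested genes of TGF-beta, activin and BMP signalling, 13 rose, none fell and 14 were not called (median 0.14). They included 7 of the 49 genes that rose at least 2-fold. Fst, the gene of follistatin, which binds and blocks activin, had forskolin intensities of 2225, 2106 and 2180 against 291.8, 297.3 and 294.3, a rise of 2.88 ± 0.05. Bambi, a decoy receptor of the family, rose by 2.14 ± 0.13. All 4 Id genes, whose proteins bind and inactivate basic helix-loop-helix factors, rose. Id1 changed by 1.85, 1.83 and 1.77, and Id2 by 1.76, 1.74 and 1.75. Id4 changed by 2.19, 2.05 and 1.97, and Id3 rose by 1.35 ± 0.16. Each Id gene was higher on every array, by amounts that differed between the genes. The inhibitory Smad gene Smad7 rose by 1.11 ± 0.04, while Smad6 and the ligand and receptor genes Bmp2, Bmp7, Acvr2a and Bmpr2 were tested and not called. Second probes of Fst (2.05) and Id4 (1.44) and the other Id2 probes, the lower at 1.00, were called in the same direction.

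Among genes of growth arrest 9 of 21 rose and 2 fell (median 0.13). Btg2, an antiproliferative adaptor of the mRNA deadenylase, had forskolin intensities of 3102, 2558 and 2671 against 429.6, 398.0 and 452.8, a rise of 2.70 ± 0.15. The kinase gene Sgk1 rose by 2.19 ± 0.12, the BTG relative Tob1 by 1.52 ± 0.15 and the stress sensor Gadd45g by 1.17 ± 0.07. The 2 falls were in Txnip (-0.45) and Cdkn2d (-0.17), named after their values were seen. In the cell cycle list 9 of 42 rose and 11 fell. Myc changed by 1.17, 0.81 and 0.60 on the 3 arrays (0.86 ± 0.29), a wide spread, while Mycn, which is amplified in many neuroblastomas, fell by 0.39. A second Mycn probe of like brightness read -0.04 and was not called. E2f1 was called lower (-0.30 ± 0.23), but not without replicate 1 (-0.17, adjusted p = 0.055), and a second E2f1 probe read -0.01 and was not called.

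Secreted signals and their precursors also held early responders. Tac1, the precursor gene of substance P, a peptide of pain-sensing neurons, had forskolin intensities of 667.6, 482.0 and 527.5 against 136.5, 136.7 and 140.6, a rise of 2.01 ± 0.25. Replicate 1 was the highest of the 3 arrays. Adm, the gene of the vasodilator adrenomedullin, rose by 1.95 ± 0.07. The granin gene Scg2 rose by 0.51 ± 0.11 and Csf1 fell by 0.49. Vip, a neuropeptide gene with a well-known CRE, changed by 0.41, 0.31 and 0.25 at 2 h and stood at 2.62 at 4 h. Bdnf was not called (0.05 ± 0.08, adjusted p = 0.504). Over this list 9 of 23 rose, 6 fell and 8 were not called (median 0.01). Outside the lists, Tent5a (1.68 ± 0.02), a poly(A) polymerase of the cytoplasm, and Prickle1 (1.52 ± 0.08), a protein of planar cell polarity, completed the 20 largest rises.

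**Figure D2:**
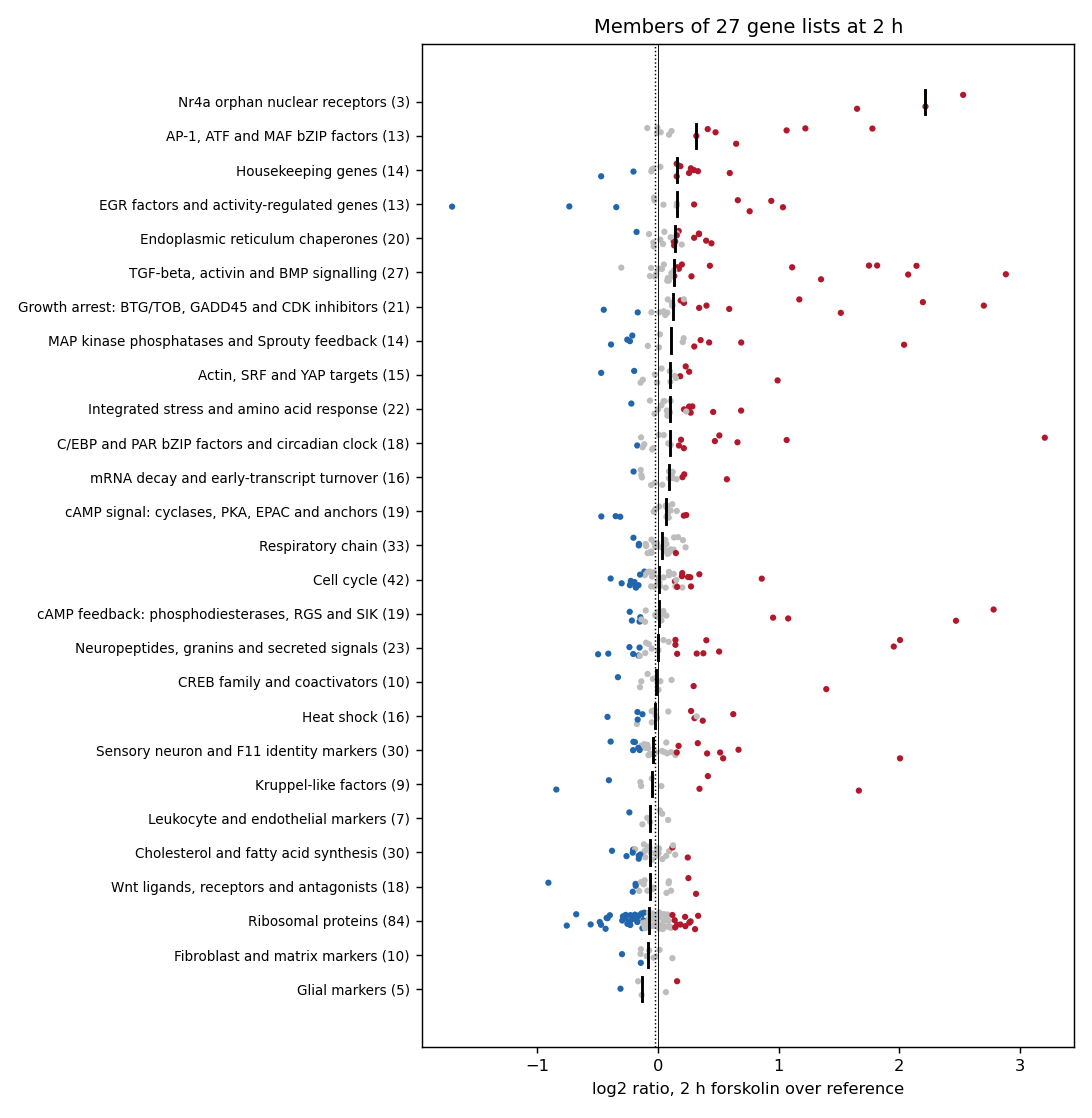
Log2 ratio of 2 h forskolin over reference (x axis) for each tested member of 27 gene lists (number tested in brackets), in red where called higher, blue where called lower and grey where not called; the bar is the list's median and the dotted line the median of all genes. Single members reach 2 to 3 in several lists whose medians stay near 0, and the Nr4a family alone has a median above 2.

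With the main processing, falls of 0.5 or more were fewer than rises, 47 against 142. Egr1, a zinc-finger early gene, had forskolin intensities of 999.0, 925.8 and 865.9 against 3444, 2838 and 2824 in the reference. All 3 treated values lay far below the 3 reference values, a fall of 3.25-fold (-1.70 ± 0.08, adjusted p = 1e-10). Dkk1, a secreted antagonist of Wnt signalling, had 2153, 2078 and 1903 against 3805, 4056 and 3624 (-0.91 ± 0.07). Arc, a synaptic early gene, had 794.3, 956.6 and 845.5 against 1425, 1429 and 1446 (-0.73 ± 0.14). In both genes the groups were apart on all arrays. The other gene that fell at least 2-fold was an unnamed transcript (A_44_P114533, -1.01). The list of EGR factors and activity-regulated genes went both ways, with 5 of 13 higher and 3 lower: Ier3 (1.04 ± 0.12), Ier5l (0.94 ± 0.11) and Egr4 (0.76 ± 0.08, 1.21 with the processed signals) rose. A second, dim probe of Ier5l read 0.24. Egr2, Egr3 and Npas4 were not bright enough to test. In the Wnt list 2 of 18 rose, led by Axin1 (0.32 ± 0.08), and 4 fell, of which Fzd2 (-0.21 ± 0.08) followed Dkk1. Fzd2 stood at -0.53 with an offset of 0 and at -0.48 with the processed signals. The share of this list called, 33.3%, was near the 28.3% of all genes. With median centring in place of loess, Axin1 lay 0.36 below (-0.36) and Fzd2 0.21 above the median of all genes, so both directions turn with the dye correction.

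Slc25a27, a mitochondrial carrier, fell by 0.66, Smpdl3a, a phosphodiesterase of lysosomes and the cell exterior, by 0.68, and Tnfsf9, a ligand of the TNF family, by 0.63. The forskolin signal of Smpdl3a was dim, with intensities of 89.7, 98.4 and 89.7, and well above background on only 2 of 3 arrays. The size of its fall, and its rank against Egr1, are therefore uncertain. Smpdl3a stood at -1.49 with an offset of 0 and at -2.06 with the processed signals, where it was below Egr1 (-1.77). Slc25a27 stood at -1.08 and -1.12 in those settings, so the order of the falls depends on the background correction. Hcn3, a pacemaker channel, fell by 0.62, Acrbp by 0.57 and Kbtbd8 by 0.70. Second probes differed for Hcn3 (-0.12, not called), Slc25a27 (-0.25, called) and Kbtbd8 (0.15, called higher), so the Kbtbd8 probes disagree in direction. Rps23 (-0.75 ± 0.13) and Rpl8 (-0.67 ± 0.15) were the ribosomal protein genes among the 12.

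Lists of general cell functions had larger shares of calls than the 28.3% of all genes in several cases, with small changes. The 4 lists given next were bright, with median forskolin intensities from 907.0 (stress genes) to 46906.5 (ribosomal), against 169.0 over all genes. In the 2 brighter of 4 equal groups by intensity, 39.71% and 41.36% of genes were called, and in the stress list 40.9%. The lists were not compared with genes of like brightness. Ribosomal protein genes, among the brightest on the array, had 31 of 84 called lower and 11 higher (median -0.07), with Rpl14 (-0.56 ± 0.07) and Rps6 (-0.48 ± 0.11) next after Rps23 and Rpl8. Housekeeping genes had 8 of 14 called higher and 2 lower (median 0.16), from Actb (-0.47 ± 0.06) to Eef1a1 (0.60 ± 0.14). Gapdh was called at 0.16 ± 0.06, but not without replicate 2 (0.14, adjusted p = 0.11) or replicate 3 (0.14, adjusted p = 0.13). With an offset of 0 Gapdh stood at 0.09 and was not called (limma adjusted p = 0.2). Ppia rose by 0.33. Endoplasmic reticulum chaperones had 10 of 20 higher and 1 lower (median 0.14), led by Pdia3 (0.44 ± 0.18) and Calr (0.40 ± 0.05), followed by Selenos (0.34) and Pdia6 (0.34). A second Pdia6 probe went the other way (-0.24, called). The integrated stress and amino acid response had 8 of 22 higher and 1 lower (median 0.10), led by Ppp1r15a (0.69 ± 0.08), which ends translational arrest, and Gars1 (0.46 ± 0.14). Median centring in place of loess moved the medians of 13 of the 27 lists to the other side of the median of all genes. The housekeeping list then lay at -0.54 relative to it, chaperones at -0.27, stress genes at -0.30, respiratory chain genes at -0.75, heat shock genes at -0.58 and actin targets at -0.31. The cell cycle list lay at -0.26, the cAMP signal list at -0.14 and the neuropeptide list at -0.12. The Wnt list lay at 0.14, Kruppel-like factors at 0.05, glial markers at 0.08 and leukocyte and endothelial markers at 0.44. Among the 24 named genes that changed sides in this way were Eef1a1, Pdia3, Errfi1, Calr, Hspb8, Selenos, Pdia6, Ppia, Vip, Akap9 and Gapdh, all of them called higher with loess.

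Heat shock genes had 4 of 16 higher, with Bag3 (0.62 ± 0.10) and Hspb8 (0.37 ± 0.07) in front, and 4 lower, led by Hspa4l (-0.42 ± 0.13), whose second probe read 0.11 and was not called. Targets of actin, SRF and YAP had 4 of 15 higher and 2 lower. Ccn1, a matrix protein gene, led them at 0.99 ± 0.08 (1.92 with an offset of 0 and 2.89 with the processed signals), but its reference intensities were only 73.4 to 78.8 and its second probe read 0.14 and was not called. Genes of mRNA decay had 3 of 16 higher, led by Zfp36l2 (0.57 ± 0.13), which binds AU-rich elements, and 1 lower. Cholesterol and fatty acid genes had 2 of 30 higher and 7 lower, with Srebf1 (-0.38 ± 0.07) and Msmo1 (-0.26 ± 0.03) in front. The other Srebf1 probes read 0.04 and 0.08 and were not called. Respiratory chain genes had 1 of 33 higher and 3 lower. Of the markers of sensory neurons and F11 cells, 8 of 30 rose, with Nefl (0.67 ± 0.26), a neurofilament, and Gata3 (0.54 ± 0.06) after Tac1, and 7 fell. Gata3 stood at 0.88 with an offset of 0 and at 1.02 with the processed signals. Glial markers had 1 of 5 higher and 1 lower, fibroblast markers 2 of 10 lower, and leukocyte and endothelial markers 1 of 7 lower.

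Promoters were read for the genes that rose because the CRE is the site through which CREB acts. RefSeq promoters on build GRCr8 were used, each 300 bases long with 250 before and 50 after the start, and both strands were searched. The full CRE, TGACGTCA, was present in 4 of the 31 genes with a promoter entry among those higher by at least 2-fold (12.9%) and in 9 of 50 among those higher by 0.5 to 1 (18.0%). It was present in 4.83% of 829 genes higher by under 0.5, 2.60% of 1387 lower genes and 2.99% of 5353 genes not called. Over all 27457 genes with a promoter the share was 2.00%. The shorter core TGACG, which also lies inside the full site, was in 45.2% and 54.0% of the same first groups, 42.5% of genes higher by under 0.5, 30.2% of lower genes and 32.3% of genes not called. A match is a description of these letters and not a site of binding. The full sites of the rising genes stood within 207 bases of the start, and 6 stretches are shown because they carry that element before genes described here or of the same wave. The capitals mark the CRE.
Btg2: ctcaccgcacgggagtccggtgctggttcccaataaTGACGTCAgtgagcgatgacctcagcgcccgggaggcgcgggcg
Dusp1: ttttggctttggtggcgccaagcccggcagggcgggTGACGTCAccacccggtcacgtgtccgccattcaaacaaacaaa
Cbx8: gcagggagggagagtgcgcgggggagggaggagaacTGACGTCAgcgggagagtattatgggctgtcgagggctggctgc
Ppp1r15a: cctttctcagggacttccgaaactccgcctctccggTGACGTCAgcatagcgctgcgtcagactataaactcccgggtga
Plk2: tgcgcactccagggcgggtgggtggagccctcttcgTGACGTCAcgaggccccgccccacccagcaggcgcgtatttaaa
Scg2: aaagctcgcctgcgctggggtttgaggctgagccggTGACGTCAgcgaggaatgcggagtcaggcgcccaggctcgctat

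These stretches lie at chr13:48087848-48087927 (Btg2, minus strand), chr10:17184693-17184772 (Dusp1, plus), chr10:104795535-104795614 (Cbx8, minus), chr1:105139619-105139698 (Ppp1r15a, minus), chr2:43702434-43702513 (Plk2, plus) and chr9:88256946-88257025 (Scg2, minus), all upstream of the transcription start. The CRE begins 201 bases before the start in Btg2, 124 in Dusp1, 78 in Cbx8, 66 in Ppp1r15a and Plk2, and 123 in Scg2. Cbx8, a Polycomb protein gene, rose by 1.17 ± 0.04 and Plk2, a kinase of synapses and the cell cycle, by 0.66. Crem also held the full site, 56 bases before the start in one promoter and 35 before the start in another. No promoter entry was present for Fos, Jun, Fst, Gem, Ier3 or Nr4a3. Of the 13 genes with a promoter entry among those lower by at least 0.5, 0 held the full CRE. The CArG box, the site of serum response factor, is CC, then 6 bases of A or T, then GG; its letters were in the promoters of 2 of those 13, against 1.29% of all tested genes with a promoter. Over all 1387 called lower genes with a promoter the share was 1.30% (18 genes), and 1 of the 50 genes higher by 0.5 to 1 held it. The 2 among the 13 were Egr1, with boxes 105 and 83 bases before the start, and Klf6, with a box 201 bases before it, shown with the box in capitals (chr17:69458634-69458715, minus strand).
Klf6: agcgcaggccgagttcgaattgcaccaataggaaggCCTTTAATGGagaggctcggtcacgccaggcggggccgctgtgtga

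The first wave was then set beside the later arrays. Every time point was measured against the same kind of reference, so the comparison here rests on differences between time points, in which a gene-specific dye effect cancels. Of all genes, 15.6% differed between 4 h and 2 h, 5.55% being higher and 10.1% lower at 4 h. Of the 49 genes that were at least 2-fold higher at 2 h, 16 were higher still at 4 h, 21 were lower at 4 h and 12 did not pass the test. These genes were selected by their high 2 h values, which favours lower values elsewhere. Against the mean of 24 and 48 h, 46 of the 49 were higher at 2 h, 0 were lower and 3 (Cebpb, Ier3 and Mat2a) were not called. In that comparison 42.7% of all genes were called, 20.6% higher and 22% lower.

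Some of the first-wave genes went on rising. Fst stood at 2.88 at 2 h and 5.09 at 4 h, and Crem at 1.39 and 3.20. Rgs2 went from 2.78 to 3.92 and was down at 0.13 and 0.19 at 24 and 48 h. Tac1 went from 2.01 to 3.27, Sik1 from 2.47 to 3.47, and Nr4a3 from 2.53 to 3.30. Each of these differences between 4 h and 2 h was called. Others were past their highest measured value. Junb stood at 1.78 at 2 h and -0.28 at 4 h, Id3 at 1.35 and -0.92, and Id1 at 1.82 and -0.11. Btg2 went from 2.70 to 0.97, Dusp1 from 2.04 to 0.85, Klf4 from 1.66 to 0.28, Fos from 1.22 to 0.06 and Jun from 1.07 to -0.13. The family members did not keep together, since Id4 was 2.07 at 2 h and 2.21 at 4 h, a difference that did not pass the test (adjusted p = 0.246), while Id1, Id2 and Id3 were lower at 4 h. Bhlhe41 was lower at 4 h (2.33) than at 2 h and stood at 1.31 and 1.93 at 24 and 48 h.

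**Figure D3:**
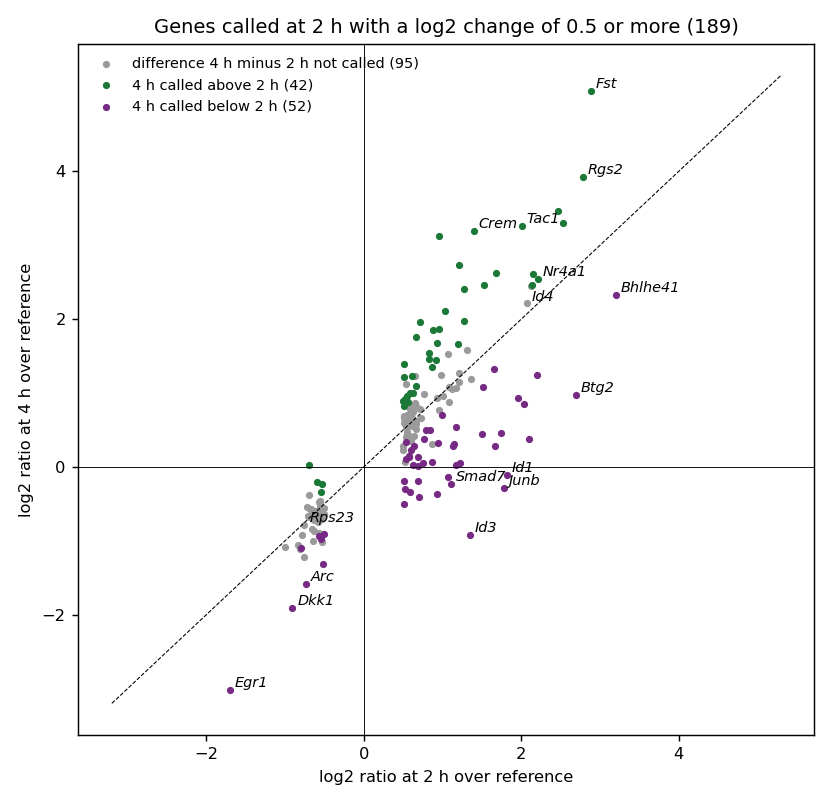
Log2 ratio over the reference at 2 h (x axis) and 4 h (y axis) for the 189 genes called at 2 h with a change of 0.5 or more in either direction; green genes are called higher at 4 h than at 2 h, purple genes lower and grey genes not called. The dashed line marks equal values: Fst and Crem lie above it, and Junb, Id1 and Id3 lie far below it.

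Of the 47 genes lower by at least 0.5 at 2 h, 8 were lower still at 4 h, 4 were higher at 4 h and 35 did not pass the test. Among the 8 were Egr1, Dkk1 and Arc. Egr1 went from -1.70 to -3.01 at 4 h, Dkk1 from -0.91 to -1.91 and Arc from -0.73 to -1.59, and each difference was called. Among the 12 largest falls, neither the difference from 4 h nor that from the later mean was called for Klf6, Rps23, Rpl8, Hcn3 or Kbtbd8. The same held for smaller falls such as Prkacb, Creb3l1 and Fzd2, and for small rises such as Gars1 and Pdia3. Klf6 read -0.84, -1.06, -0.73 and -0.90 at 2, 4, 24 and 48 h. Rps23 read -0.75, -0.79, -0.74 and -0.67, and Rpl8 -0.67, -0.69, -0.58 and -0.76. Hcn3 read -0.62, -0.60, -0.47 and -0.57, and Kbtbd8 -0.70, -0.66, -0.80 and -0.95. A level that is near the same at all times against one reference is also what a fixed dye effect would give, and the design cannot tell these apart. Rpl14 read -0.56, -0.56, -0.66 and -0.71, and its difference from the later mean was called. Against the mean of 24 and 48 h, 20 of the 47 did not pass the test, 19 were lower and 8 were higher at 2 h.

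The share of genes called rose with brightness. With the genes divided into 4 equal groups by their mean intensity over both channels and all arrays, 10.96% of the dimmest group were called, 21.26% and 39.71% of the next, and 41.36% of the brightest. The changes also spread wider, from -0.16 to 0.15 (the 5th and 95th percentiles) in the dimmest group and from -0.30 to 0.31 in the brightest. The median SD over the 3 arrays fell from 0.09 in the dimmest to 0.07 in the brightest group. Of the 49 genes higher by at least 2-fold, 27 lay in the brightest group and 2 in the dimmest. The median change was -0.01, -0.03, -0.05 and -0.03 in the groups from dim to bright. The size of changes in dim genes such as Fos and Ccn1 depends on the background correction, as given above. With an offset of 0 in the background correction 79 genes reached 2-fold higher and 16 lower, and with the scanner software's processed signals 142 and 172. In the latter setting falls past 2-fold outnumbered rises.

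**Figure D4:**
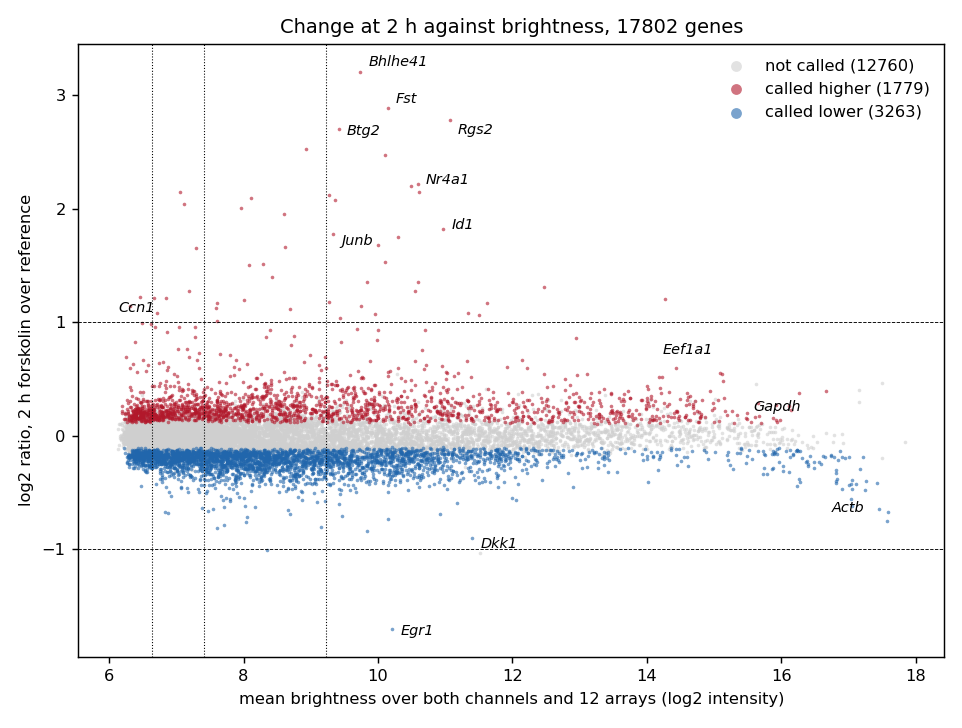
Log2 ratio of 2 h forskolin over reference (y axis) against the mean log2 intensity over both channels and 12 arrays (x axis) for 17802 genes, called higher in red, called lower in blue and not called in grey. Dotted lines divide the genes into 4 equal groups by brightness and dashed lines mark 2-fold; most genes past 2-fold lie above the line, and 27 of these 49 lie in the brightest group.

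Of the 49 genes higher by at least 2-fold, 37 had a symbol and 12 were transcripts with only an accession or a provisional name. Named after their values were seen, AW142654 rose by 2.14, AA859348 by 2.12 and AA817984 by 2.09. The 4 h values of the first pair were 2.61 and 2.45, whereas AA817984 was down at 0.38, so both courses of the named genes also occur among the unnamed ones. In the files XM_213050 is described as similar to Klf4 and AF468681 as an Id4 sequence, so some of the 49 may stand for a gene already counted. For TC563170 the reference was not well above background on any of the 3 arrays, and its rise was at least 2.21-fold. The bound sets the mean treated intensity against the lowest intensity of probes above background. Of the 37 genes with a symbol, those not yet mentioned were Cited2 (1.36 ± 0.14), a CBP-binding regulator, Midn (1.31), Gprc5b (1.28), the small GTPase gene Arl4a (1.28), the somatostatin receptor gene Sstr1 (1.20) and Mat2a (1.01 ± 0.31), which makes S-adenosylmethionine. They were named after their values were seen.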

How the data were processed

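The 12 two-colour Agilent rat arrays were read from the scanner files. Per the file headers, mean and local background intensities of each spot in both channels came from Feature Extraction 9.5.1.1, and the processed intensities and log10 ratios had been background-subtracted, detrended and dye-normalized. The log10 ratios in the deposited files served only to find the direction of the authors' deposited log2 values, which ran as red over green (r = 0.909 to 0.911) and were turned for an alternative. The submitters' processing notes name limma without a version, how these values were normalized is not given in the sources, and they lack 170 of the non-control spots.

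Under R 4.3.3, limma 3.58.1 corrected the mean intensities for background (normexp, offset 50). Log2 ratios of green over red then went through a loess correction per array in which control spots had weight 0. Outlier-flagged spots were left out, spots of a probe were averaged, and a probe was kept if well above background in a channel on all 3 arrays of a time point, which left 20630 probes. The brightest probe stood for its gene; of 2359 genes with several probes, 66 had probes called in opposite directions. Names were updated through RefSeq genes of GRCr8: 10735 probes matched by accession, 83 by another accession, 5571 by symbol and 3705 by synonym, and 20918 kept the file's name. The probe positions in the files are on rn3, for which no genome was used here.

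A model with a mean per time point was fitted to 12 arrays with lmFit and eBayes, which left 8 residual degrees of freedom. The mean of each time point was tested against 0, and time points against each other, with Benjamini-Hochberg adjustment over all genes. On simulated ratios for 2 h against the reference, 100 of 100 genes changed by 0.5 and 100 of 100 changed by 1 were recovered among 17802, and 5 unchanged genes were called. The simulated noise was independent between arrays and held no dye effect. Changes under 0.5 were not simulated, so the many small calls were not covered. Alternatives were other background corrections, the processed intensities, median centring, other filters and probes, 2 h arrays alone, a replicate block, each 2 h array left out and the deposited log2 values. Genes named were, the 20 largest rises and 12 largest falls among genes that had a symbol, were called and moved one way on every array, then up to 4 called members of each of 27 lists, and a set always given where measured. Others were named after their values were seen. The members and lists were chosen with earlier results of these data known.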

Additional observations from a re-analysis of the deposited data

Results flagged for a closer look

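In 4 of the genes named by the rule, the change against the reference was called at both 2 h and 4 h with opposite signs, and the difference between the times was also called. Junb was 1.78 higher at 2 h and -0.28 at 4 h, a difference of -2.06 (limma adjusted p = 2.11e-08). Bhlhe40 stood at 0.51 and -0.50, a difference of -1.01 (limma adjusted p = 1.4e-06). With median centring its 2 h value was -0.33, though 0.25 above the median of all genes. Its sign against the reference at 2 h therefore depends on the dye correction. Dusp2 stood at 0.69 and -0.19, a difference of -0.88 (limma adjusted p = 1.72e-05). Msmo1, an enzyme gene of cholesterol synthesis, went the other way, from -0.26 to 0.23, a difference of 0.49 (limma adjusted p = 5.15e-05).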

How the results depend on the processing

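Of the genes named, 113 in all, the fit with a replicate block changed no call. That block, with the slide of each replicate number as a fixed effect, called 6188 genes in place of 5042, 3492 between 4 h and 2 h in place of 2783, and 8463 between 2 h and the later mean in place of 7595. Same-numbered arrays share a slide and deviated together by correlations of 0.053 to 0.474, all above 0 but not all above 0.1. Median centring in place of loess called 13741 genes at 2 h, with 13 higher and 4552 lower genes past 2-fold; 356 genes then differed between 4 h and 2 h in place of 2783, and 3620 between 2 h and the later mean in place of 7595. An offset of 0 gave 79 and 16 genes past 2-fold, the processed signals gave 142 and 172, and no background correction gave 1 lower. Leaving out 1 array at 2 h gave 2803 to 4172 calls at 2 h. With median centring these 40 values changed sign (log2): Nefl -0.023, Gadd45g -0.058, Ier5l -0.12, Per1 -0.16, Jun -0.16, Ppp1r15a -0.30, Bhlhe40 -0.33, Creb1 -0.39, Nfil3 -0.40, Scg2 -0.41, Klf13 -0.43, Myc -0.47, Rrm1 -0.49, Fzd3 -0.50, Runx1 -0.50, Bag3 -0.50, Zfp36l2 -0.52, Gars1 -0.53, Tpm4 -0.64, Hspb8 -0.66. Further ones were Vip -0.67, Pdia3 -0.67, Uqcrc1 -0.68, Selenos -0.71, Calr -0.75, Errfi1 -0.75, Akap9 -0.80, Eef1a1 -0.82, Slc3a2 -0.87, Cyp51 -0.88, Slc38a2 -0.91, Axin1 -0.93, Tagln2 -0.97, Pdia6 -0.97, Ywhaz -0.97, Ppia -1.05, Pmp22 -1.09, Hsp90aa1 -1.16, Cnot1 -1.17, Gapdh -1.36. Relative to the median of all genes in that setting, -0.57, 24 named genes lay on the other side of it. Of the named genes, 6 lost their call without replicate 1, 8 without replicate 2 and 12 without replicate 3, and 0 changed sign there. The cause of these shifts was not tested. Low signal over background limits the dimmest genes, and 3 arrays per time the precision of all.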
